A study of Homo sapiens with 4 samples.

Results

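The effectors of RAB27 in vesicle secretion were described here as 10 genes: SYTL1, SYTL2, SYTL3, SYTL4, SYTL5, EXPH5, MLPH, UNC13D, MYRIP and RPH3AL. They were found by an exact match of the gene name among the gene spots of the arrays. They made up 10 of 43317 gene names and 15 of 58201 gene probes, and all 10 symbols were also found in RefSeq (GRCh38.p14). The study profiled mRNA in 2 established human cancer cell lines, HCT116 from a colorectal cancer and A549 from a lung cancer. Cells of each line were transfected with miR-891b or with NC1, a negative control RNA, and all 4 groups received the same lipid reagent, Dharmafect1. Each group had 1 sample on 1 array, so no group had a replicate. The labels give neither the dose nor the time after transfection. Both HCT116 arrays lay on 1 slide and both A549 arrays on another, so line and slide cannot be told apart, while miR-891b was set against NC1 within a slide.

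RAB27A and RAB27B are small GTPases that sit on secretory vesicles, melanosomes, lytic granules and multivesicular endosomes. In their GTP-bound form they recruit effector proteins, and the effector decides whether the vesicle is moved along actin, docked at the plasma membrane or readied for fusion. The synaptotagmin-like proteins, SYTL1 to SYTL5, carry C2 domains that bind membrane lipids and serve mainly in docking. EXPH5 (Slac2-b), MLPH (melanophilin, Slac2-a) and MYRIP (Slac2-c) form a related group, in which MLPH and MYRIP link RAB27 to myosin motors. UNC13D (Munc13-4) primes vesicles for fusion, and RPH3AL (Noc2) binds RAB27 and RAB3 on the granules of endocrine cells. In cancer cells RAB27A, RAB27B, SYTL4 and EXPH5 are known for their part in the release of exosomes, small extracellular vesicles.

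The transfected miRNA is shown first, as the sequence that separates the groups of a line. It is given 5′ to 3′ from RefSeq (GRCh38.p14, chrX:146001100-146001121, minus strand), with the seed, bases 2 to 8, in capitals.
miR-891b: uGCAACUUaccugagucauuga
Each array probe is a 60-base sense-strand piece of a transcript, and 5 of the 15 probes are shown because the results below turn on them: probes of SYTL1, SYTL3 and SYTL4 whose signal separated the lines or disagreed with another probe of the gene, and the MLPH probe that spans an exon junction. Their positions are the hg19 coordinates in the scanner files, and the transcript position is the one the files give.
SYTL1, chr1:27671923-27671982, transcript position 294: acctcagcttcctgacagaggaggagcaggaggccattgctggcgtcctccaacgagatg
SYTL1, chr1:27676916-27676975, transcript position 1105: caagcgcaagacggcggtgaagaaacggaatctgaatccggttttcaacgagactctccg
SYTL3, chr6:159181680-159181739, transcript position 1495: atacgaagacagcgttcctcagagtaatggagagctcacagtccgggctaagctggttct
SYTL4, chrX:99933453-99933512, transcript position 2098: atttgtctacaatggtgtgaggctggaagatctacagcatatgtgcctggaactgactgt
MLPH, chr2:238457898-238461015, transcript position 1894: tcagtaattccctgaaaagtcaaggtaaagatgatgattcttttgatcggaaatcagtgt
The MLPH probe covers 3118 bases of the genome, so it reads spliced RNA. The complement of the seed, AAGTTGC, was searched on the sense strand of every gene probe and was in 0 of 15 effector probes and in 0.393% of all gene probes (229 of 58201). Its 6-letter parts AGTTGC and AAGTTG, which overlap it, were also in 0 of the 15, against 1.18% and 1.90% of all probes, and on either strand the count for the effectors was 0 for each of the 3 motifs. A 60-base probe is a small window on a transcript, so these counts say nothing of sites elsewhere in the mRNAs.

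Values are log2 processed signals from which the 75th percentile over gene probes of the same array was taken away, called the level here, so a level of 0 is the 75th percentile of that array. A probe counted as measured where the scanner software marked it as well above background, which 44.7% to 50.3% of gene probes were on each array. No gene spot was saturated and no effector spot carried an outlier mark. The 75th percentile signal was 54.9 and 57.0 on the HCT116 arrays (NC1 and miR-891b) and 74.8 and 74.2 on the A549 arrays. For probes printed at least 5 times with levels from -2 to 3, the median SD of the difference between 2 arrays over spots was 0.0757 in HCT116 (115 probes) and 0.0774 in A549 (129 probes). This covers printing and scanning within a slide, not the spread between cultures. Areas of stray signal held 10.5% of the gene spots of the HCT116 miR-891b array and 0.0213% to 2.20% of those of the other 3 arrays. In such an area, of the surrounding spots with no signal above background on the other 3 arrays, at least 10% were bright. The lines matched their labels: all 6 A549 markers (AKR1B10, AKR1C1, ALDH1A1, ALDH3A1, NQO1, KRT81) were higher in A549. Of 5 colorectal markers, CDX2, EPCAM, CLDN7 and CLDN3 were higher in HCT116, and VIL1 was higher in A549.

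Of the 10 effectors, 7 were measured on all 4 arrays: SYTL1, SYTL2, SYTL4, EXPH5, MLPH, UNC13D and RPH3AL. SYTL3 was measured in HCT116 and on neither A549 array. MYRIP was measured on 1 array, HCT116 NC1, and SYTL5 on none. Where a gene had several probes, the one with the highest mean stood for it, and the levels of different probes were not compared with each other.

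**Figure D1:**
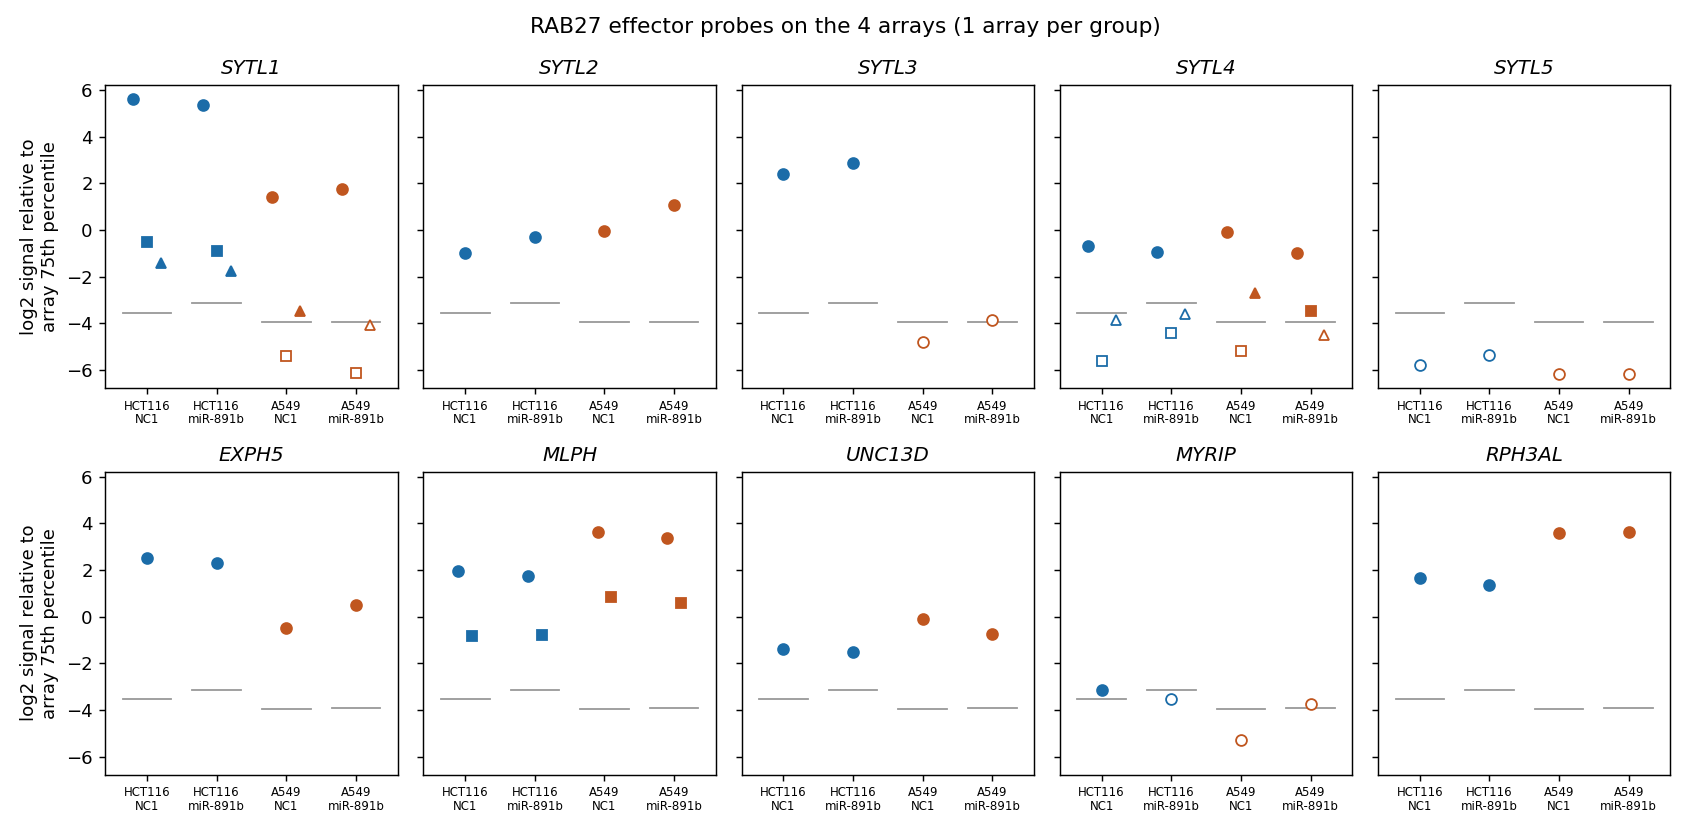
Level (log2 relative to the array's 75th percentile) of each probe of the 10 effectors on the 4 arrays. Filled symbols are well above background and open symbols are not, circles are the probe that stands for the gene, squares and triangles are its other probes, and grey ticks mark the lowest level that was well above background on each array. SYTL1, SYTL3 and EXPH5 sit higher on both HCT116 arrays, MLPH and RPH3AL sit higher on both A549 arrays, and every SYTL5 symbol is open.

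The first comparison asked how the mRNAs of the effectors differed between miR-891b and NC1 cells of the same line. In HCT116, 0 of the 8 measured effectors differed 2-fold or more, and SYTL2, at 1.64-fold higher with miR-891b, differed most. In A549, 2 of the 7 measured effectors were at least 2-fold higher with miR-891b, SYTL2 at 2.17-fold and EXPH5 at 2.01-fold, and 0 were 2-fold lower. SYTL4 was 1.84-fold and UNC13D 1.57-fold lower in miR-891b A549 cells. Among all measured genes, 1.16% were at least 2-fold higher and 0.843% at least 2-fold lower in HCT116 (of 19105), and 4.01% were higher and 5.57% lower in A549 (of 21336). With 1 array per group these are sizes without a test. In bulk RNA, fewer cells that express a gene and less RNA per cell cannot be told apart.

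SYTL2, which docks vesicles at the plasma membrane of epithelial and other secretory cells, was higher with miR-891b in both lines. In HCT116 its level was -1.0 with NC1 and -0.29 with miR-891b, and in A549 it was -0.04 and 1.08, from processed signals of 27.5, 46.7, 72.9 and 157. Within each line the miR-891b array was thus the higher one, by 0.71 in HCT116 and 1.12 in A549 on the log2 scale. Of all measured genes, 2.58% were higher by as much or more in HCT116 and 3.14% in A549. The differences lay between 0.26 and 0.75 in HCT116 and between 0.72 and 1.18 in A549 under the other settings tried. The lowest values came from normexp background correction with quantile normalization, under which the 2-fold call in A549 was lost. That setting adds 50 to every signal, of the order of the SYTL2 signals themselves, which makes differences smaller. Over all genes in A549 it took the share called from 9.58% to 3.58%, so the lost call does not set SYTL2 apart. SYTL2 had 1 probe (chr11:85406077-85406136).

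SYTL1, also called Slp1 or JFC1, showed differences of opposite sign in the lines. The levels of the probe that stands for it (chr1:27680362-27680421, transcript position 1868) were 5.62 and 5.34 on the HCT116 arrays (NC1, then miR-891b) and 1.43 and 1.75 on the A549 arrays. The miR-891b array was lower by 0.29 in HCT116 and higher by 0.32 in A549, and 20.8% and 21.4% of measured genes differed as far in these directions. The probe at transcript position 294 went from -1.41 to -1.75 in HCT116 and from -3.48 to a signal not well above background in A549, at least 1.37-fold lower. The probe at position 1105 went from -0.54 to -0.91 in HCT116 and was dim on both A549 arrays. The probes at positions 1868 and 294 therefore differed in direction in A549. The level of -3.48 at position 294 lay near the lowest one well above background on A549 NC1, -3.96. The spot at position 1868 lay in an area of stray signal on HCT116 miR-891b, where 21.5% of nearby dim spots were above background.

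SYTL3, another synaptotagmin-like protein, was measured in HCT116 at 2.41 with NC1 and 2.87 with miR-891b, a difference of 0.46 that 6.58% of measured genes reached. In A549 its levels of -4.81 and -3.86 were both not well above background, so no fold was given there.

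SYTL4, or granuphilin, docks insulin granules and is one of the effectors known from exosome release. Levels of the probe that stands for it (chrX:99929798-99929857, transcript position 3539) were -0.68 and -0.93 in HCT116 and -0.11 and -0.99 in A549. The difference was -0.25 in HCT116 and -0.88 in A549, and 24.8% and 7.35% of measured genes were lower by as much. A second probe, at transcript position 2098, had the same direction in A549: it was at -2.70 with NC1 and not well above background with miR-891b, at least 2.35-fold lower. The remaining probe, designed to an Ensembl transcript (chrX:99940011-99940070), went the other way, from dim with NC1 to -3.48 with miR-891b, at least 1.39-fold higher. The 3 probes of SYTL4 therefore did not share a direction in A549. The Ensembl probe weighs little here: its signals were 2.01 and 6.66. Its level with miR-891b lay near the lowest one well above background on that array, -3.93.

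SYTL5, which has been linked to mitochondria, had 1 probe (chrX:37984607-37984666) with levels from -6.19 to -5.39, not well above background on any array.

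Among the Slac2 proteins, EXPH5 was the one with a 2-fold difference. Its probe (chr11:108379800-108379859) stood at 2.50 and 2.29 on the HCT116 arrays and at -0.50 and 0.51 on the A549 arrays, from signals of 311, 279, 53.0 and 106. The miR-891b array was lower by 0.21 in HCT116 and higher by 1.01 in A549. In A549 3.91% of measured genes were higher by as much, and in HCT116 28.5% were lower by as much. The A549 value lies at the 2-fold threshold and was 0.53 with normexp correction and quantile normalization, which ended the call. The offset in that setting makes differences smaller for all genes at such signals.

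MLPH, which bridges RAB27 and myosin Va on melanosomes, was measured by both of its probes on every array. The junction probe stood at 1.94 and 1.72 in HCT116 and at 3.64 and 3.38 in A549, so miR-891b cells were lower by 0.22 and 0.27. The second probe (chr2:238463765-238463824) stood at -0.84 and -0.79 in HCT116 and at 0.83 and 0.58 in A549, differences of 0.04 and -0.25. Both probes were a little lower with miR-891b in A549, and in HCT116 they differed in sign. The junction probe's differences were reached by 27.7% of measured genes in HCT116 and 32.6% in A549.

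MYRIP, which links RAB27 to myosins VIIa and Va, stood at -3.15 on HCT116 NC1 and was not well above background on the other 3 arrays (chr3:40301725-40301784). That level lay just below the lowest one well above background on the miR-891b array, -3.14, so no bound on a difference was given.

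UNC13D, the priming factor whose loss impairs killing by cytotoxic lymphocytes, stood at -1.37 and -1.50 in HCT116 and at -0.09 and -0.74 in A549 (chr17:73823583-73823642). It was lower with miR-891b by 0.13 and 0.65, differences that 38.0% and 12.9% of measured genes reached. RPH3AL stood at 1.64 and 1.38 in HCT116 and at 3.59 and 3.63 in A549 (chr17:62556-62615). Its differences of -0.27 and 0.05 were reached by 22.8% and 40.4% of measured genes, and its spot on HCT116 NC1 lay in an area of stray signal (13.2%).

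**Figure D2:**
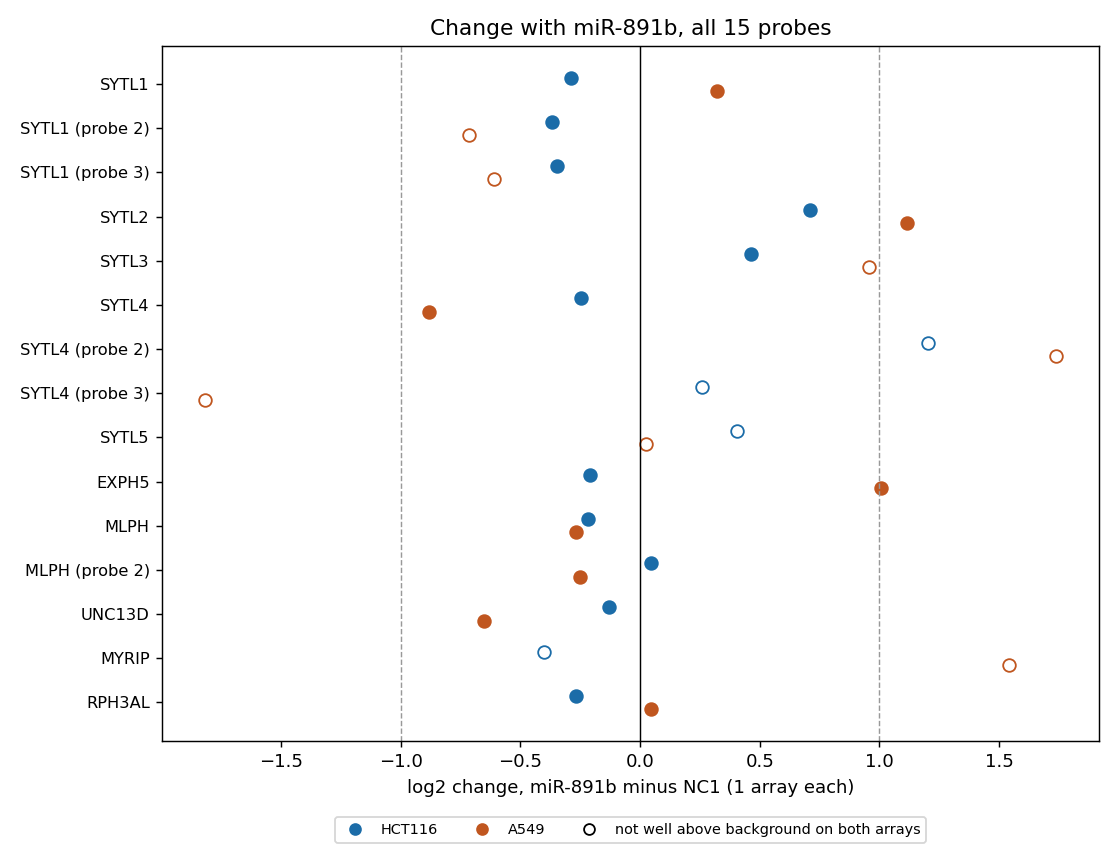
Difference between miR-891b and NC1 (log2) for each of the 15 probes in HCT116 (blue) and A549 (orange). Filled symbols are probes well above background on both arrays of the line, open symbols are not, and dashed lines mark 2-fold. The SYTL2 and EXPH5 symbols of A549 lie past the upper dashed line, and the probes of SYTL1 and of SYTL4 spread to both sides of 0 in A549.

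The median difference was -0.21 over the 8 effectors measured in HCT116 and 0.05 over the 7 in A549, beside -0.04 and -0.06 over all measured genes. In HCT116 6 of the 8 differences lay between -0.29 and -0.13, with SYTL2 and SYTL3 on the positive side. In A549 they ran from -0.88 for SYTL4 to 1.12 for SYTL2.

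**Figure D3:**
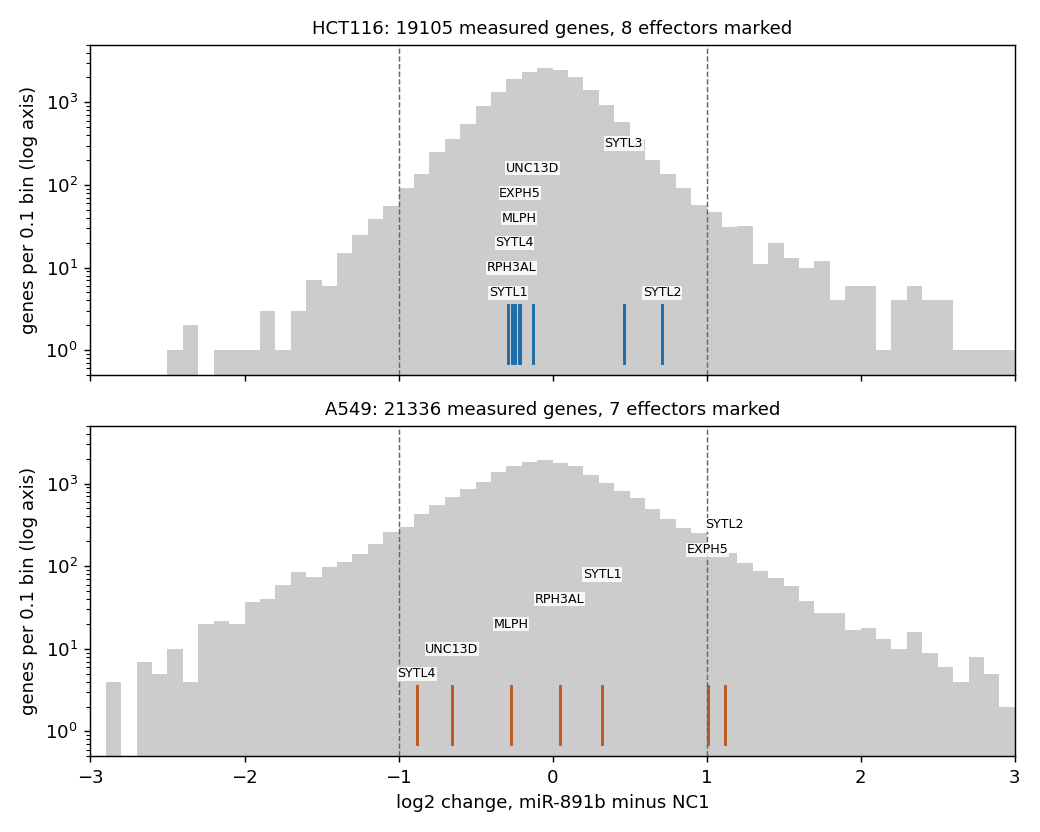
Number of measured genes in each 0.1 bin of the log2 difference between miR-891b and NC1 (log axis, shown from -3 to 3), in HCT116 above and A549 below. Coloured ticks mark the measured effectors and dashed lines mark 2-fold, and SYTL2 and EXPH5 in A549 lie past the upper line while the other marked effectors lie between the lines.

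The lines were then used to replicate the transfection, in a limma model with additive terms for miR-891b and cell line, fitted to the 22712 genes that were well above background on at least 2 of 4 arrays. The model has 1 residual degree of freedom. Its error for a gene joins how unlike the differences of the lines were with a variance that limma takes from all fitted genes. An SE is thus not the gene's own spread alone: MLPH, with differences of -0.22 and -0.27, had an SE of 0.23. Of the 8 effectors in the fit (MYRIP and SYTL5 were not), 0 passed an adjusted p of 0.05 for miR-891b, and the share called over all genes was 0% higher and 0% lower. On simulated data in which most genes were unaltered, the miR-891b term also missed every gene with a difference of 2-fold or 4-fold. The lack of calls therefore does not show that differences of these sizes were absent. SYTL2 had an estimate of 0.91 ± 0.25 (SE), with an unadjusted limma p of 0.0203 and a Benjamini-Hochberg adjusted p of 0.793. SYTL3, dim on both A549 arrays, was fitted but its estimate is not given. SYTL4 was at -0.56 ± 0.28 and UNC13D at -0.39 ± 0.26, with limma adjusted p-values of 0.793 and 0.802. EXPH5, whose difference had opposite signs in the lines, was at 0.40 ± 0.38. MLPH, RPH3AL and SYTL1 were at -0.24 ± 0.23, -0.11 ± 0.24 and 0.02 ± 0.27. Over all genes the unadjusted limma p was under 0.05 for 1214 of 22712.

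The second comparison asked how the effectors differed between the lines, and here the differences were larger. SYTL3, SYTL1 and EXPH5 were higher in HCT116, and RPH3AL, MLPH and SYTL2 were higher in A549. The additive limma model gave an adjusted p under 0.05 for these 6 of the 8 fitted effectors, where 15.5% of all fitted genes were called higher in A549 and 16.4% higher in HCT116. SYTL3 entered the fit only through the HCT116 arrays, where it was high, so its call is no test. Of the 7 effectors measured on all 4 arrays, 3 were called higher in A549 and 2 higher in HCT116. Of the 18064 genes measured on all 4 arrays, 9.74% were called higher in A549 and 15.8% higher in HCT116. The p-values rest on the error of the same model, how unlike the miR-891b differences of the lines were, moderated over all fitted genes. The arrays of a line also differed in the RNA transfected, and each line lay on its own slide.

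SYTL3 had the widest gap. It was at least 82.5-fold higher in HCT116 on the NC1 arrays and at least 106-fold higher on the miR-891b arrays, from signals of 292 and 418 in HCT116 and 2.66 and 5.12 in A549. The bound on the NC1 arrays was set by the lowest level well above background on A549 NC1, and that on the miR-891b arrays by the dim SYTL3 signal itself. SYTL1 was lower in A549 by 4.20 on the NC1 arrays and by 3.59 on the miR-891b arrays (limma estimate, A549 minus HCT116, -3.89 ± 0.27, adjusted p 0.00225), from signals of 2708 and 2301 in HCT116 and 201 and 249 in A549. Its other probes had the same direction: the probe at position 294 was lower in A549 by 2.07 on the NC1 arrays and at least 4.53-fold lower on the miR-891b arrays, and the one at position 1105 at least 10.7-fold and 8.13-fold lower. Without probes in areas of stray signal, the probe at position 294 stood for SYTL1. The limma estimate was then -2.20, which rests in part on a dim signal on A549 miR-891b. For SYTL3 and SYTL1 the HCT116 and A549 arrays did not overlap, and the same held for EXPH5, MLPH, RPH3AL, SYTL2 and UNC13D. The share of all genes without overlap was not counted, so this is no result about the effectors.

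EXPH5 was lower in A549 by 3.0 on the NC1 arrays and by 1.78 on the miR-891b arrays (limma -2.39 ± 0.38, adjusted p 0.0163). Its SE was the largest of the 8, and its gap between the lines was narrower on the miR-891b arrays. MLPH was higher in A549 by 1.70 and 1.65 (1.68 ± 0.23, limma adjusted p 0.0116), and its second probe by 1.67 and 1.37. RPH3AL was higher in A549 by 1.94 and 2.26 (2.10 ± 0.24, limma adjusted p 0.00740), from signals of 171 and 148 in HCT116 and 898 and 920 in A549. SYTL2 was higher in A549 by 0.96 and 1.37 (1.17 ± 0.25, limma adjusted p 0.0338). That call was lost with normexp correction and quantile normalization, where the estimate was 0.62 and the limma adjusted p 0.0900.

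UNC13D was higher in A549 by 1.28 on the NC1 arrays and 0.76 on the miR-891b arrays (1.02 ± 0.26), with a limma adjusted p of 0.0513 that lay between 0.0407 and 0.119 over the other settings. SYTL4 was higher in A549 by 0.57 on the NC1 arrays and lower by 0.06 on the miR-891b arrays (0.26 ± 0.28, limma adjusted p 0.513). The sign of the latter changed with the setting. Its probe at position 2098 was at least 1.80-fold higher in A549 on the NC1 arrays. MYRIP was at least 1.75-fold higher in HCT116 on the NC1 arrays, and SYTL5 gave no value.

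By size alone, on the NC1 arrays 3 of the 7 effectors measured in both lines were at least 2-fold higher in A549 (MLPH, RPH3AL, UNC13D) and 2 were lower (SYTL1, EXPH5), where 11.1% of 19218 genes were higher and 16.2% lower. On the miR-891b arrays 3 were higher (MLPH, RPH3AL, SYTL2) and 2 lower (SYTL1, EXPH5), where 11.4% of 18576 genes were higher and 20.7% lower. The count on the miR-891b arrays was 3 of 5 without probes in areas of stray signal, because RPH3AL then had no probe and SYTL1 was not measured on A549 miR-891b. The median difference of the 7 was 0.96 and 0.76, beside -0.10 and -0.19 over all genes. SYTL1 lay farthest out, with 0.760% of genes lower in A549 by as much on the NC1 arrays and 1.02% on the miR-891b arrays. EXPH5 followed on the NC1 arrays with 1.97%, and was at 7.18% on the miR-891b arrays.

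**Figure D4:**
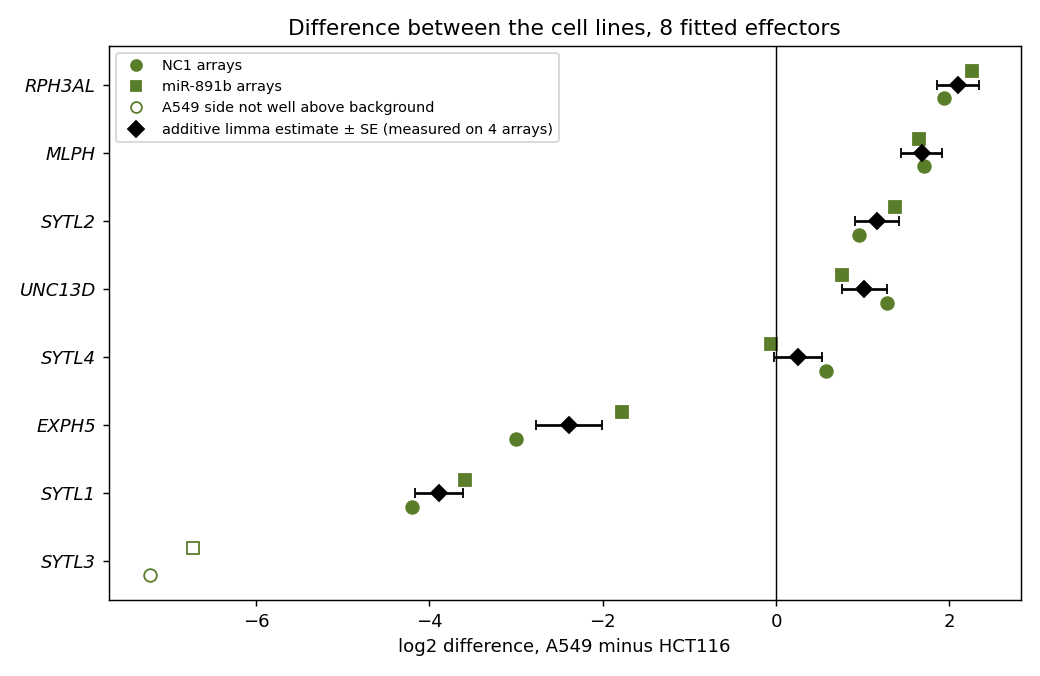
Difference between A549 and HCT116 (log2) for the 8 effectors in the limma fit. Diamonds with bars are the estimates ± SE for the 7 measured on all 4 arrays, circles the NC1 arrays, squares the miR-891b arrays, and open symbols rest on an A549 signal not well above background. SYTL3, SYTL1 and EXPH5 lie below 0, RPH3AL, MLPH, SYTL2 and UNC13D lie above it, and the SYTL4 bar crosses 0.

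Some effectors are best known from other cell types, and marker genes of those types were read on the same arrays. Of 5 melanocyte markers, MLANA was well above background on 0 arrays and TYR on 1, HCT116 miR-891b. PMEL, DCT and MITF were on all 4. MITF, at -0.82 and -1.03 in HCT116 and 3.49 and 3.67 in A549, went the way of MLPH, while PMEL, at 0.35 and -0.62 against -1.15 and -2.77, went the other way and DCT lay between -2.21 and -2.13 on every array. Signals were also summed per list, with those not well above background included. For this list the sum was 2.10 and 1.62 times the 75th percentile signal in HCT116. It was 11.9 and 13.1 times in A549, mostly from MITF. Of 4 cytotoxic lymphocyte markers, CD3E was on 0 arrays and GZMB on 3, PRF1 was measured in HCT116 alone and NKG7 in A549 alone. Their summed signal was 0.791 and 0.681 in HCT116 and 0.252 and 0.297 in A549. Of 4 islet and neuroendocrine markers, INS, SYP and CHGA were measured in A549 alone and GCG on 3 arrays. The sum was 0.253 and 0.234 in HCT116 and 0.714 and 1.37 in A549, the line where RPH3AL was higher. In HCT116 the INS, SYP and CHGA parts of the sum were not well above background. CHGA stood at -1.60 and -0.04 in A549. The bound for INS was at least 1.21-fold higher in A549 on the NC1 arrays and 1.02-fold on the miR-891b arrays. Whether these genes have a part in the differences was not tested.

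The GTPases that the effectors bind were measured on all 4 arrays. RAB27A, which is known to act in the docking of endosomes for exosome release, stood at -1.47 and -1.19 in HCT116 and at -0.47 and -0.38 in A549, differences of 0.28 and 0.09 with miR-891b. Between the lines it was higher in A549 by 0.90 ± 0.24 (limma adjusted p 0.0521). RAB27B stood at -0.80 and -0.93 in HCT116 and at 2.61 and 2.88 in A549, so miR-891b cells differed by -0.13 and 0.27. It was higher in A549 by 3.61 ± 0.25 (limma adjusted p 0.00217), and a second RAB27B probe was at least 23.8-fold and 27.1-fold higher there on the NC1 and miR-891b arrays. By the limma estimate and on the NC1 arrays, the lines thus differed in RAB27B by more than in any effector other than SYTL3 and SYTL1. On the miR-891b arrays the difference in RAB27B, 3.81, was also larger in size than that in SYTL1, -3.59.

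A wider list of 43 genes held the RAB27 and RAB3 GTPases and their regulators, myosins, SNAREs and their Sec1/Munc18 partners, and relatives of the effectors with C2 domains. With miR-891b, 0 of 38 measured genes of the list were at least 2-fold higher and 1 lower in HCT116, and 3 of 36 were higher and 2 lower in A549. Over all measured genes, 1.16% were at least 2-fold higher and 0.843% lower in HCT116, and 4.01% were higher and 5.57% lower in A549. With so few genes past 2-fold, the counts are no result about the list. The medians of the list were -0.18 in HCT116 and -0.01 in A549, beside -0.04 and -0.06 over all measured genes. The HCT116 gene was RAB37, a GTPase of secretory granules, at 2.01 with NC1 and 0.99 with miR-891b. Its difference of -1.03 was between -0.99 and -0.76 under 4 of the alternatives, which ended the call.

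In A549, RAB3B, a secretory GTPase, went from 0.32 with NC1 to 1.91 with miR-891b, and STX3, a plasma membrane SNARE of epithelial cells, from -0.18 to 1.20. RAB3IL1, an exchange factor for RAB GTPases, went from -1.65 to -0.33. RAB3B and RAB3IL1 had spots in areas of stray signal on at least 1 array (13.8% and 16.9%). VAMP7, a SNARE of lysosomes and secretory vesicles, went from 3.22 to 1.72, and CHML, the Rab escort protein that presents RABs for prenylation, from 1.78 to 0.46. The same 5 genes differed in HCT116 by 0.30, 0.26, -0.17, -0.65 and -0.04, in that order of RAB3B, STX3, RAB3IL1, VAMP7 and CHML. With normexp correction and quantile normalization, RAB3B and VAMP7 were the ones past 2-fold in A549. For the miR-891b term of the limma model 0 of the 39 fitted genes of the list were called. By the simulated data, this does not show that differences of 2-fold or 4-fold were absent.

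Between the lines, limma called 4 of the 35 genes of the list measured on all 4 arrays higher in A549 and 6 higher in HCT116, near the 9.74% and 15.8% of all genes so measured. By role, the GTPases and their regulators gave 2 higher in each line of 13, the myosins 1 in each line of 5, the SNAREs and partners 0 in A549 and 2 in HCT116 of 13, and the relatives of the effectors 1 in each line of 4. Another 4 relatives were in the fit through 1 line alone: RIMS1 was measured only in A549, and DOC2A, DOC2B and UNC13A only in HCT116. The myosin called higher in A549 was MYO1E and the one higher in HCT116 was MYO5B, while MYO5A, the partner of MLPH, was not called.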

How the data were processed

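Per the labels, 100 ng of total RNA per sample was labelled with Cy3 for 1-colour Agilent arrays. Per the file headers and the submitters' processing notes, Agilent Feature Extraction 11.5.1.1 gave the deposited scanner files, which hold background-subtracted, spatially detrended intensity values on a linear scale with hg19 probe coordinates. A second deposited table gives the authors' own log2 values, with no account of how they were made. They differed from the level used here by a median of at most 0.0069 per array (largest 0.109), with column medians of -3.80, -3.60, -3.71 and -3.68, so scale and direction matched those of the level. That table was an alternative.

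Samples were grouped by title. Outlier-marked spots were dropped, log2 processed signals were averaged per probe, and the array's 75th percentile over gene probes was subtracted. With 1 array per group, a difference was called at 2-fold among genes well above background on both arrays. Where 1 side was dim, its level was replaced by the higher of its own and the lowest level well above background on that array, giving a bound. The model used limma 3.58.1 (lmFit, eBayes) in R 4.3.3, with Benjamini-Hochberg adjustment over all fitted genes. Its power was checked on simulated data of 22712 genes, with 40 altered genes for each size of difference and 22512 left unaltered. The miR-891b term reached an adjusted p under 0.05 for 0 of the 40 altered genes at 2-fold and likewise at 4-fold. At 8-fold it did so for 17, and at 16-fold for 34. For the cell line term the numbers at these sizes were 0, 3, 34 and 37. In the data 7249 genes were called for that term, far more than were altered here, so these numbers do not give its power. With 0 calls at 2-fold and 4-fold there, a lack of calls for miR-891b cannot decide whether differences of 2-fold to 4-fold were present. At 64-fold the numbers were 39 for miR-891b and 40 for cell line. Of the 22512 unaltered genes, 12 were called for miR-891b and 19 for cell line. In this simulation the false calls were thus a larger share of all calls than the 0.05 aimed at, for both terms. The calls between lines over genes measured on all 4 arrays were counted after seeing the data. Python 3.11.15 (numpy 2.4.6, pandas 2.3.3) gave the other values and matplotlib 3.10.9 the plots. Whether samples were separate cultures is not given, so p-values cover only the spread between these arrays.

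The effectors, the wider list and the markers were chosen with earlier results of these data known. All 10 effectors are named. Of the wider list, RAB27A, RAB27B and genes past 2-fold with miR-891b in either line are named, and MYO1E, MYO5B, MYO5A, RIMS1, DOC2A, DOC2B and UNC13A were added after their values were seen. Alternatives were quantile normalization, with and without normexp background correction (offset 50), scaling to the median of probes measured on all arrays, the authors' values, the mean over probes, no filter on dim probes, no probes in areas of stray signal and a 1.5-fold threshold. An area of stray signal was judged over spots within 10 rows and 10 columns.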

Additional observations from a re-analysis of the deposited data

Results flagged for a closer look

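The difference between miR-891b and NC1 had opposite signs in the lines for 5 named genes. With 1 array per group, none of these 5 differences between lines could be given a test, and each was not tested. For EXPH5 it was 1.22 on the log2 scale (A549 minus HCT116), from -0.21 in HCT116 and 1.01 in A549. For RAB3IL1 it was 1.49, from -0.17 and 1.32. For SYTL1 it was 0.61, from -0.29 and 0.32, and its probe at position 294 had the opposite sign in A549, at a low signal. For RAB27B it was 0.40, from -0.13 and 0.27. For RPH3AL it was 0.31, from -0.27 and 0.05.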

How the results depend on the processing

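Over the effectors, 42 recomputed counts of calls stayed within 1.5 times the value reported and 4 did not. At 1.5-fold the count with miR-891b was 1 in HCT116 (SYTL2) and 4 in A549 (SYTL2, EXPH5, SYTL4, UNC13D). With normexp correction and quantile normalization it was 0 in A549. Without probes in areas of stray signal the count between the lines on the miR-891b arrays was 3. Of the recomputed values of the 16 single genes, 604 kept their direction and side of the threshold, 16 (from 8 genes) lost a call and 7 (from 4 genes) gained one. The sign changed for 4 values that were not called, of SYTL1 and SYTL4, and for 0 called values. Of the counts of the wider list, 7 moved by over 1.5 times. With normexp correction the differences between the lines fell under 2-fold for UNC13D on the NC1 arrays (0.47) and for SYTL2 on the miR-891b arrays (0.85). The offset of 50 in that setting is added to every signal and makes differences smaller, most of all at low signals. Calls lost under it alone therefore cannot tell a fragile difference from this shrinkage. Over all genes, calls with miR-891b in HCT116 were 221 higher and 161 lower, against 27 and 12 with normexp correction, 2788 and 1434 with no filter on dim probes, and 747 and 1080 at 1.5-fold. In A549, 855 and 1188 became 335 and 429, 2933 and 3080, and 2369 and 3259. Between the lines, 2127 and 3114 on the NC1 arrays became 1153 and 1394, 5300 and 6539, and 3861 and 5482, and 2122 and 3837 on the miR-891b arrays became 1448 and 1675, 5080 and 7955, and 3708 and 6341. The limma model called 0 genes for miR-891b, and 6 with no filter. No paired analysis was possible because the labels give no replicate numbers, beyond the limma model itself, in which the cell line is already a term. Low signal limits SYTL5, MYRIP and, in A549, SYTL3.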
